A study of Homo sapiens with 6 samples.

Results

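Accessible chromatin around MYC was examined in GM12878, a human B lymphoblastoid line immortalised by Epstein-Barr virus (EBV). The members were all peak summits on chromosome 8 between 126700000 and 129700000 (hg38), a window of 3 Mb that holds MYC at 127735434 to 127742951. They were taken by position and not by score or group, although the members were chosen with earlier results of these data known. They numbered 30 and 61 in the H3K27ac-high libraries, 54 and 71 in the H3K27ac-low libraries and 84 and 94 in the live control libraries, out of 25754 and 46708, 41980 and 51944, and 70100 and 72476 summits in all. Joined across libraries where they lay closer than 250 bp, these 394 summits formed 118 of the 100513 regions of the series.

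There were 3 groups of 2 libraries. Cells of the H3K27ac-high and H3K27ac-low groups were fixed with paraformaldehyde, stained for acetylation of histone H3 at lysine 27 (H3K27ac), which marks active enhancers and promoters, and sorted for high or low signal. The staining protocol itself names H3K37ac, while the sorted fractions are labelled H3K27ac. Libraries were made with InTAC-seq, an ATAC-seq variant made for intracellularly stained cells. The enzyme Tn5 was given 30 minutes to insert adapters into open DNA. Live control cells were fresh and unsorted, and their DNA was purified without crosslink reversal. Fixation, staining, sorting and crosslink reversal therefore cannot be told apart between the sorted groups and the live control. Replicates were portions of 50000 cells, so the spread between them may be technical.

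MYC encodes a transcription factor that pairs with MAX to drive growth, ribosome production and cell division. The gene lies in a stretch of the chromosome with few other protein-coding genes, and in blood cells it is known to be controlled by enhancers that sit far away on either side. In lymphoblastoid lines the viral protein EBNA2, acting through the DNA-binding protein RBPJ, is known to activate super-enhancers far upstream that contact the MYC promoter. Of the 36 annotated genes that overlap the window, 23 are long noncoding RNAs, and the other protein-coding gene besides MYC is POU5F1B.

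The lists differed in length, so each library's regions were ranked by the authors' score (rank 1 is the strongest) and the best 25627 were used. H3K27ac high replicate 1 had no more regions than that, so in it a region outside the best was not called at all. Read depth is unknown, and in bulk libraries a region open in fewer cells and a region less open per cell cannot be told apart. The label was checked against marker genes with a best region within 1 kb of either gene end. Of 8 B cell markers, MS4A1, CD79B and CD74 were open in all 6 libraries, CD79A in 5, PAX5 and CD22 in 1 each and BLK in none. Of 7 T and NK cell markers, CD3E and CD8A were open in all 6, and CD3D, CD2 and NKG7 in 1 each. By comparison, 0 of 6 myeloid, 0 of 5 erythroid and 0 of 3 epithelial markers were open in any library. Among all protein-coding genes 40.2% were open in all 6, so the B cell and the T and NK cell counts do not tell these cell types apart.

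Open regions were spread over about a megabase around MYC and thinned out farther downstream. Among the best regions of at least 1 library, 54 lay in the window, and 18 of them (33.3%) were among the best of all 6 libraries, against 35.2% of the 41407 such regions genome-wide. Over 50 kb from any protein-coding gene end the shares were 16 of 50 (32%) in the window and 24.9% genome-wide. Those 18 ran from 556.6 kb upstream to 578.5 kb downstream of the MYC start, and 16 of them were more than 50 kb away. PVT1, a long noncoding RNA gene downstream of MYC, contained 5 of the 18, out of 14 best regions of any library there. The stretch 400 to 550 kb upstream contained 6, out of 12 (50%). More than 600 kb downstream, 26 regions were listed, but 7 were among the best of any library and none in more than 2 libraries. CCDC26, a noncoding gene at the far end whose neighbourhood is known to hold blood-cell enhancers, had 1 best region each in H3K27ac high replicate 2, H3K27ac low replicate 2 and live control replicate 1, and none in the other libraries.

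**Figure D1:**
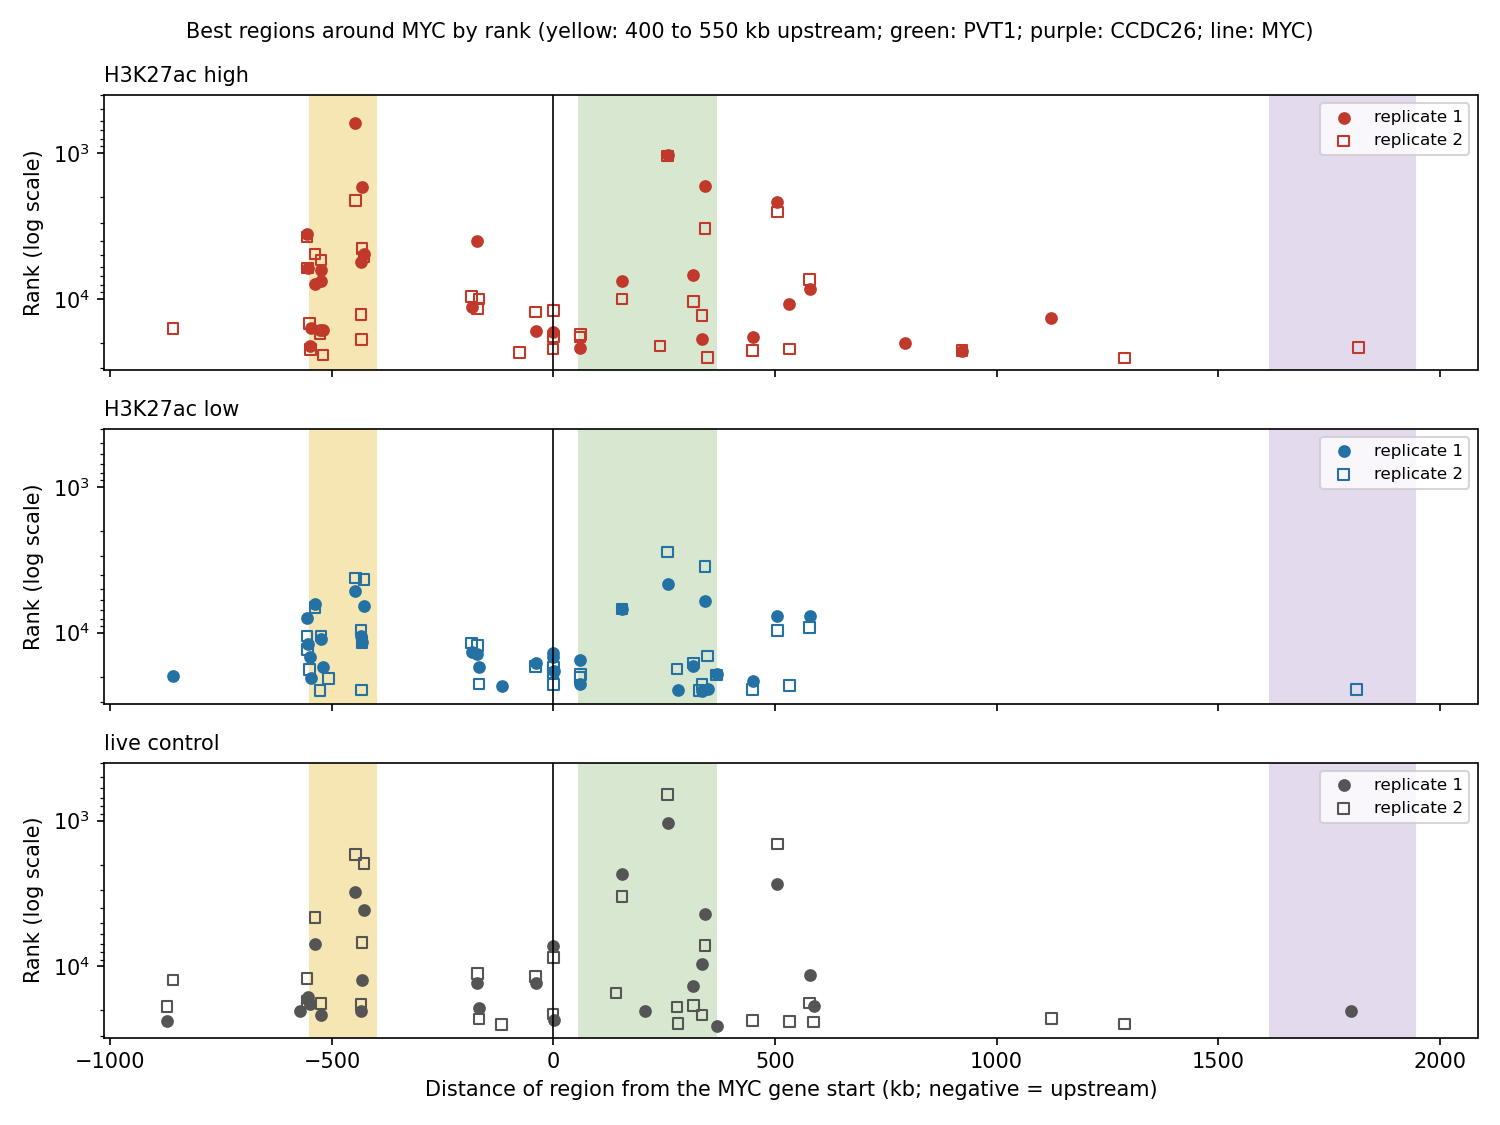
Rank of each library's best regions (log scale, strongest at the top) against distance from the MYC start in kb, for H3K27ac high, H3K27ac low and live control, with filled circles for replicate 1 and open squares for replicate 2. The strongest regions sit in the upstream stretch, in PVT1 and about 505 kb downstream, not at MYC itself.

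The MYC promoter was open in every library, and it ranked better in the live control than in the sorted cells. Its region (127735313 to 127735386, hg38) lay just before the annotated gene start, with single summits 0.05 to 0.12 kb upstream of it. It ranked 17004 and 12020 in the H3K27ac-high group, 14586 and 17202 in the H3K27ac-low group, and 7215 and 8725 in the live control. The high and low values overlapped, while all 4 sorted libraries stood behind both live libraries. The mean rank was 15203 ± 2433 (SD, n = 4) in sorted cells and 7970 ± 1068 (SD, n = 2) in the live control (exact permutation test, two-sided, p = 0.0667, the smallest that 15 splits allow). Between high and low the difference of -1382 ranks was within the spread of the replicates (exact permutation test, two-sided, p = 0.667). Both live libraries also ranked ahead of all sorted ones at 15.3% of the 10868 protein-coding genes open in at least 1 library, so MYC shares this with many genes.

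Set among gene ends, the MYC promoter was of middling strength in live cells and weak in sorted cells. It stood at position 7437 of 8906 and 6821 of 9510 open protein-coding genes in the high libraries. In the low libraries it stood at 8362 of 9922 and 8833 of 9907. In the live libraries it stood at 5005 of 9789 and 5653 of 9776. Other regions of the same window outranked it, 23 and 16 of them in the high, 16 and 18 in the low, and 7 and 8 in the live libraries. The gene's summit is thus never the strongest of its neighbourhood in these lists.

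A pair of regions flanked the promoter, both behind it in rank except that the upstream one was ahead in H3K27ac low replicate 1. One, 1.3 kb upstream (127734145 to 127734186), ranked 22116 in H3K27ac high replicate 2, 13850 and 18921 in the low libraries, with 38623 and 21201 in the live libraries, and was not listed in H3K27ac high replicate 1. This region also lay within 1 kb of an annotated end of the noncoding RNA gene CASC11. The other, 0.7 kb inside MYC (127736155 to 127736165), ranked 18039 in high replicate 2, 18204 and 22619 in the low libraries and 23290 in live replicate 1. It was not listed in H3K27ac high replicate 1 or live replicate 2, so the flanks were listed in fewer libraries than the promoter between them. POU5F1B, a retrogene copy of the pluripotency factor gene OCT4, had no best region within 1 kb of either end in any library.

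The stretch 400 to 550 kb upstream held more summits per Mb than the window as a whole in every library. H3K27ac-high libraries had 10 and 13 summits there (66.7 and 86.7 per Mb), H3K27ac-low libraries 11 and 14 (73.3 and 93.3 per Mb) and live libraries 14 and 16 (93.3 and 107 per Mb). The average over chromosomes 1 to 22 and X was 8.74 to 24.6 summits per Mb, depending on the library, and over the whole window 10 to 31.3. Of the 19 regions of the stretch, 9 were listed in all 6 libraries, against 19.8% of all regions in the full lists. Among the best of at least 1 library were 12 of the 19, against 41407 of all 100513 regions. The stretch carries the noncoding RNA genes CASC19 and CCAT1 and parts of the overlapping genes CASC21 and CASC8. The annotation used here gives gene spans, so exons and introns were not told apart.

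Counted at equal list length, more of these upstream regions were among the best in sorted than in live cells. The high libraries had 10 and 10, the low libraries 8 and 9, and the live libraries 6 and 6. All 4 sorted libraries thus exceeded both live ones, with means of 9.25 ± 0.957 (SD, n = 4) and 6 ± 0 (SD, n = 2), a difference of 3.25 regions (exact permutation test, two-sided, p = 0.0667, adjusted over 4 comparisons 0.267). High exceeded low by 1.5 regions (exact permutation test, two-sided, p = 0.333, the smallest that 2 against 2 libraries allow, adjusted 0.444). With full lists, whose length differs, the sorted libraries had fewer (-3) and high fewer than low (-1), as the numbers of summits show. Without H3K27ac high replicate 1 and with lists lengthened to 41828 regions, sorted exceeded live by 1.5 regions (exact permutation test, two-sided, p = 0.3), and with the best 12813 by 2 (p = 0.0667 in the exact test).

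Over the whole window the groups were not separated in this way. The high libraries had 30 and 38 best regions, the low libraries 33 and 35, and the live libraries 27 and 31. The means of 34 ± 5.66 (SD, n = 2) in high and 34 ± 1.41 (SD, n = 2) in low were equal (exact permutation test, two-sided, p = 1). H3K27ac high replicate 1 had the fewest of the sorted libraries, and without it the difference was 4 regions, without replicate 2 -4 regions. Sorted libraries exceeded live ones by 5 regions with overlapping values (exact permutation test, two-sided, p = 0.2, adjusted 0.4). This difference turned to -0.5 when H3K27ac high replicate 1 was left out and lists were lengthened to 41828 regions.

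**Figure D2:**
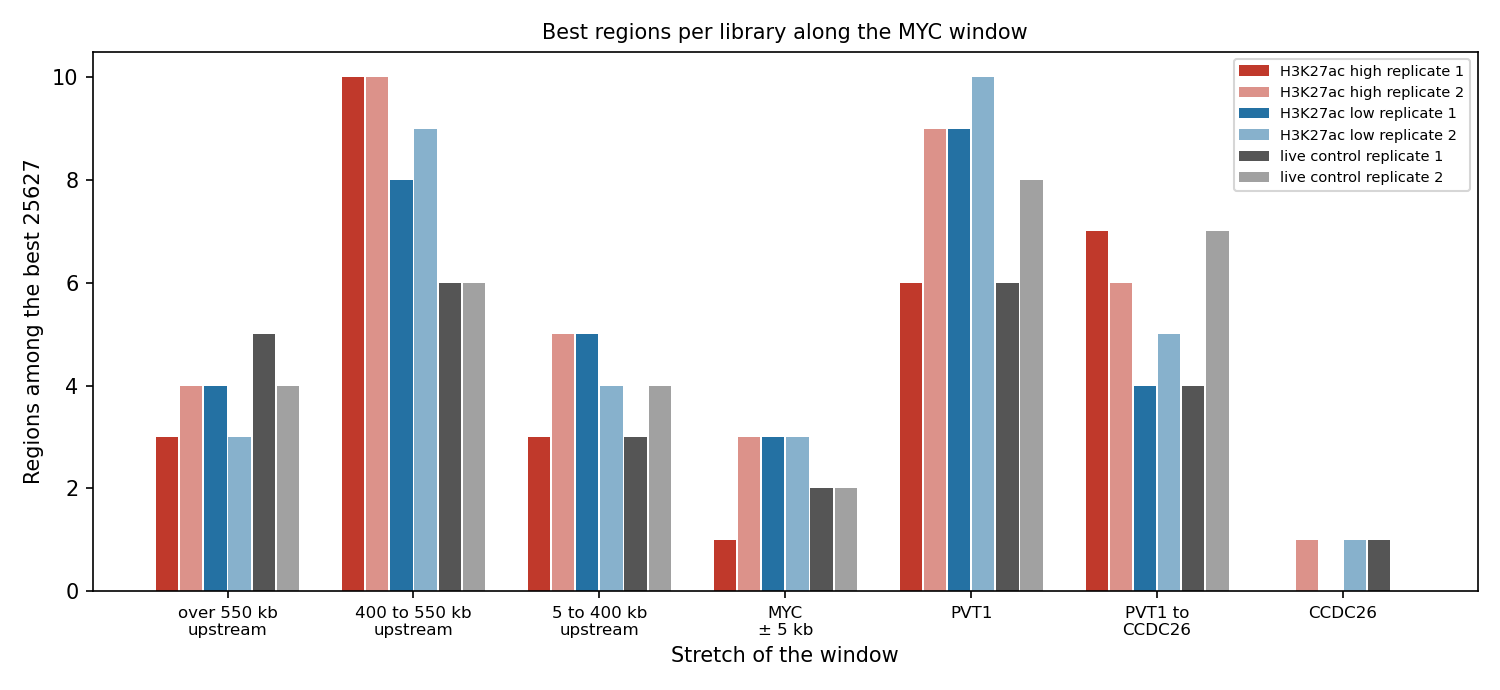
Number of regions among the best 25627 of each library (bars) along the window, from over 550 kb upstream to CCDC26. In the stretch 400 to 550 kb upstream the high and low libraries have 8 to 10 regions and the live libraries 6 each, while in every other stretch drawn the sorted and live libraries overlap.

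Within the upstream stretch, a region in CCAT1 and one in CASC21 and CASC8 were ahead in all sorted libraries. The region 524.7 kb upstream, inside CCAT1 (127210653 to 127210752), ranked 6307 and 5399 in the high, 11001 and 10542 in the low and 21470 and 17883 in the live libraries. The 3 groups followed one another without overlap, high ahead of low and low ahead of live. Its mean rank was 8312 ± 2870 (SD, n = 4) in sorted cells and 19676 ± 2536 (SD, n = 2) in the live control (exact permutation test, two-sided, p = 0.0667). That is the smallest value that 15 splits allow. The p-values given for single regions, the promoter included, were not adjusted for the number of regions. The region 434.5 kb upstream, inside CASC21 and CASC8 (127300856 to 127300963), ranked 5599 and 12829 in the high, 10469 and 9595 in the low and 20296 and 18280 in the live libraries. Here, too, every sorted library was ahead of both live ones (exact permutation test, two-sided, p = 0.0667), but high and low overlapped.

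Neighbouring regions did not share that order. The strongest region of the stretch, 447.0 kb upstream (127288373 to 127288425, inside CASC21), ranked 626 and 2125 in the high, 5190 and 4226 in the low, and 3085 and 1709 in the live libraries. Both high libraries were ahead of both low ones, and the live values overlapped with the high ones. The region 432.5 kb upstream (127302916 to 127303011), close to the one at 434.5 kb, ranked 1699 and 4514 in the high, 11641 and 11689 in the low and 12381 and 6839 in the live libraries. Again high was ahead of low, while sorted and live overlapped. The region 427.6 kb upstream (127307799 to 127307909) went the other way between sorted and live cells, with ranks of 4920 and 5178 in the high, 6565 and 4338 in the low and 4089 and 1970 in the live libraries (exact permutation test, two-sided, sorted against live, p = 0.0667). At 538.4 kb upstream (127197053 to 127197094), at an end of CASC19, all 6 libraries lay between 4627 and 7881 and the groups overlapped.

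The other 6 regions of the stretch were among the best of 1 to 3 libraries. The region 527.1 kb upstream, also in CCAT1, ranked 16267 and 17317 in the high, 31060 and 24836 in the low and 40370 and 41773 in the live libraries. Both high libraries were ahead of the rest, while low replicate 1 and both live libraries were outside the best and so not ordered (exact permutation test, two-sided, sorted against live, p = 0.267). Those at 547.9 and 520.2 kb were among the best in both high and 1 low library each and in no live library. The region at 433.9 kb was among the best in high replicate 2 and low replicate 2. Single libraries held the rest. The region at 525.4 kb ranked 7518 in H3K27ac high replicate 1 and was otherwise listed only in live replicate 2, at 42398, and that at 508.5 kb was among the best in low replicate 2 alone.

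**Figure D3:**
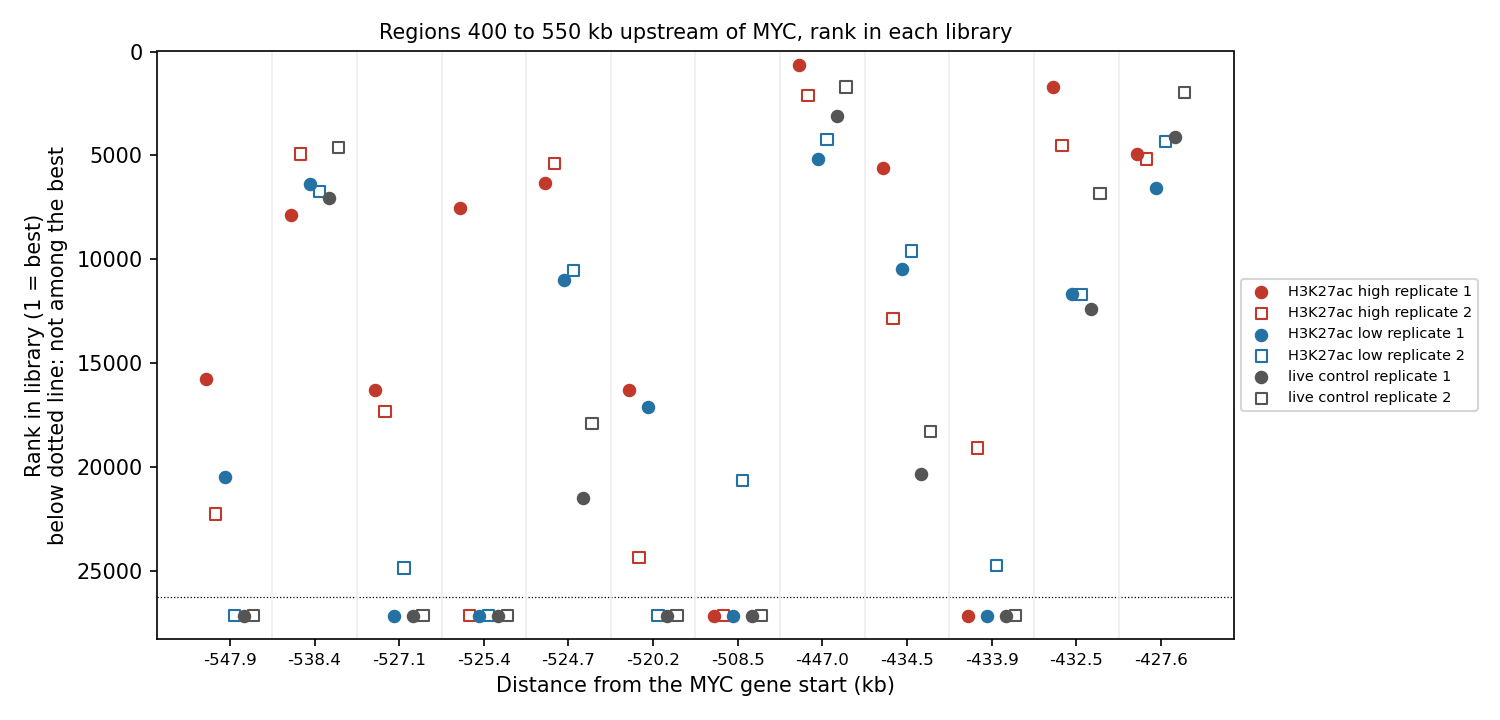
Rank of the 12 best regions 400 to 550 kb upstream of MYC in each library (vertical axis, strongest at the top) by distance from the MYC start in kb. Points below the dotted line were not among the best 25627, and at 524.7 kb upstream the high, low and live libraries follow one another without overlap.

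The border of the stretch cuts through a group of open regions. Just inside it, the region at 547.9 kb ranked 15725 and 22238 in the high, 20442 and 29418 in the low and 32842 and 31548 in the live libraries. Just outside, the region at 550.7 kb (127184689 to 127184808) ranked 20925 and 14712 in the high, 14607 and 17887 in the low and 18048 and 30307 in the live libraries. Chained at under 10 kb, 5 best regions from 556.7 to 538.3 kb upstream formed the largest cluster of the window. Chains of at least that many regions made up 1.23% of all chains genome-wide. Lone regions counted as chains too, and 26.3% of chains had at least 2 regions. Further clusters of 4 regions lay 527.1 to 520.2 kb upstream, 434.6 to 427.5 kb upstream and, in PVT1, 328.8 to 348.2 kb downstream. At least as many were held by 3.08% of all chains, lone regions included.

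Beyond the border, a pair of strong regions were ahead in high cells. The region 556.6 kb upstream (127178774 to 127178806) ranked 3591 and 3776 in the high, 7971 and 10569 in the low and 16597 and 12041 in the live libraries. The region 555.2 kb upstream (127180238 to 127180294) ranked 6108 and 6157 in the high, 12013 and 13041 in the low and 16236 and 17344 in the live libraries. Both showed the order seen 524.7 kb upstream in CCAT1, high, then low, then live, with no overlap (exact permutation test, two-sided, sorted against live, p = 0.133 for each). The region 185.0 kb upstream, described next, had this order too. How many regions genome-wide have it was not counted. Taken singly, 14.1% of regions genome-wide had both high libraries ahead of both low ones, and 8.24% had all sorted libraries ahead of both live ones.

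Closer to MYC, the region 185.0 kb upstream (127550414 to 127550504) was best only in sorted cells. It ranked 11314 and 9635 in the high, 13519 and 11762 in the low and 37762 and 33293 in the live libraries, so both high libraries were also ahead of both low ones. With both live ranks counted as last, since they lie beyond the best 25627, the sorted mean of 11558 ± 1596 (SD, n = 4) differed from live by -14070 ranks (exact permutation test, two-sided, p = 0.0667). This difference follows largely from the region being among the best in sorted cells only, so the test adds no support. The region 171.8 kb upstream (127563645 to 127563677) ranked 4037 and 11594 in the high, 14012 and 12268 in the low and 12996 and 11146 in the live libraries, so high was ahead of low but overlapped with live. The region 40.4 kb upstream (127694995 to 127695157) lay between 11735 and 17056 in all libraries.

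Downstream, PVT1 held some of the strongest regions of the window. At 257.9 kb (127993305 to 127993328) the ranks were 1034 and 1046 in the high, 4611 and 2806 in the low and 1040 and 665 in the live libraries. High and live libraries overlapped there, and low libraries stood behind both. At 341.6 kb (128076968 to 128077183) the ranks were 1684 and 3285 in the high, 6048 and 3527 in the low and 4383 and 7166 in the live libraries, so high was ahead of both other groups. At 154.7 kb (127890078 to 127890185) they were 7523 and 10008 in the high, 6898 and 6903 in the low and 2310 and 3312 in the live libraries. There, as at the MYC promoter, both live libraries were ahead of all sorted ones (exact permutation test, two-sided, p = 0.0667). At 315.4 kb (128050829 to 128050923) high led again, with 6859 and 10384 against 16857 and 16124 in low cells, while live cells had 13527 and 18477.

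Near the MYC-facing end of PVT1, a region was among the best in sorted cells only. The region 60.4 kb downstream of the MYC start (127795733 to 127795857), close to the microRNA gene MIR1204, ranked 21726 and 17611 in the high, 15388 and 19313 in the low and 40497 and 25878 in the live libraries. All sorted libraries had it among their best and neither live library did, although live replicate 2, at 25878, was just outside. It was named for this pattern, so the test on the same ranks (exact permutation test, two-sided, p = 0.0667) adds no support. The adjacent region at 59.7 kb ranked 18261 in high replicate 2, 22370 and 20296 in the low and 40304 and 40784 in the live libraries, and was not listed in high replicate 1. At the annotated end itself, 59.1 kb downstream (127794515 to 127794639), a weak region was listed at 43502 in high replicate 2, in neither low library, and at 37789 and 39119 in the live libraries, outside the best of every library.

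Past PVT1, 2 regions were among the best of all libraries. That at 505.1 kb (128240503 to 128240535) ranked 2157 and 2534 in the high, 7651 and 9640 in the low and 2718 and 1443 in the live libraries, the same pattern as at 257.9 kb. That at 578.5 kb (128313919 to 128313998) ranked 8603 and 7356 in the high, 7669 and 9236 in the low and 11530 and 17825 in the live libraries. High and low overlapped there, and all were ahead of live (exact permutation test, two-sided, p = 0.0667).

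**Figure D4:**
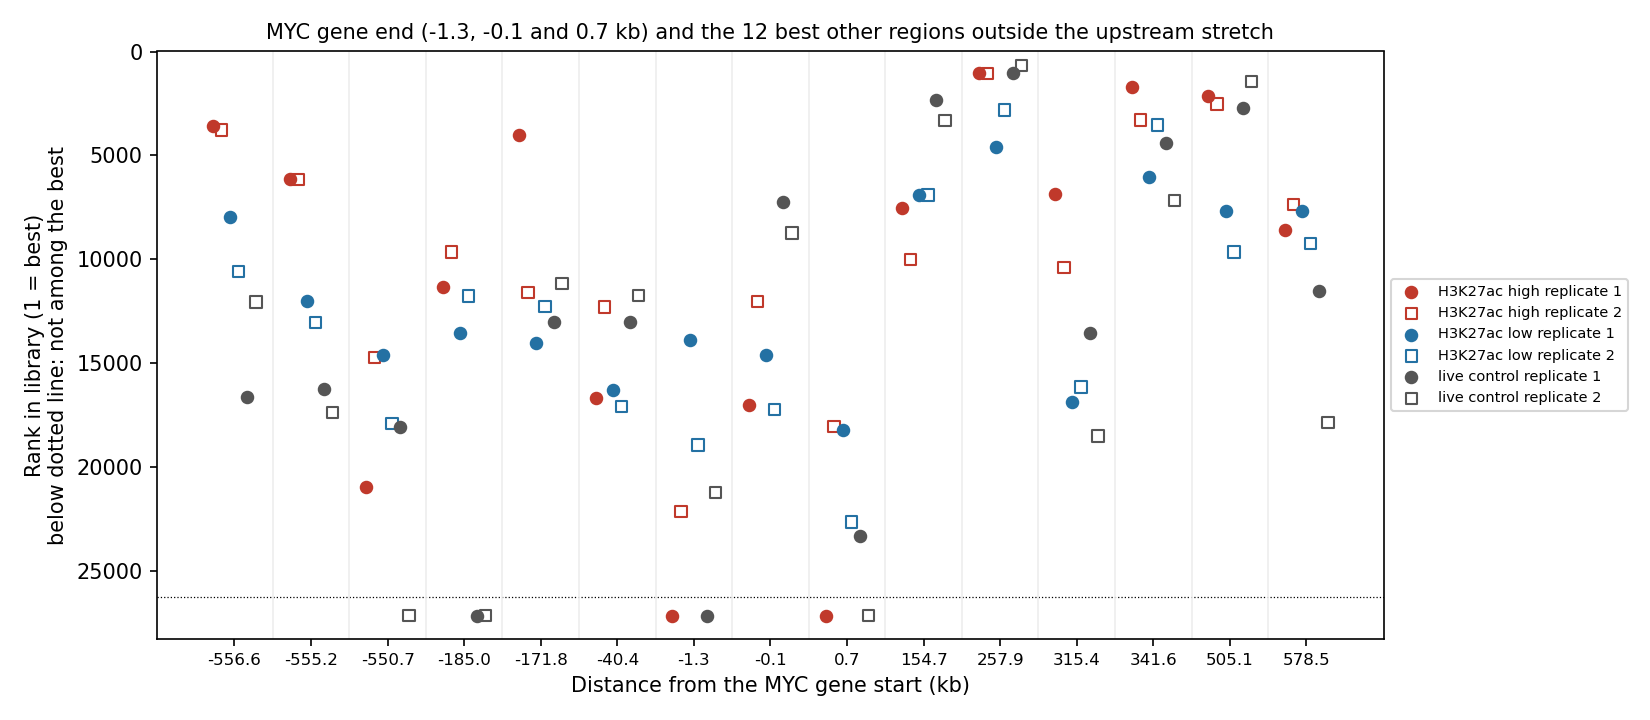
Rank in each library (strongest at the top) of the MYC promoter region at -0.1 kb, its flanks at -1.3 and 0.7 kb, and the 12 best-ranked other regions outside the stretch 400 to 550 kb upstream, by distance from the MYC start in kb. At -0.1 kb the live libraries rank 7215 and 8725, ahead of all sorted libraries, while at -185.0 kb the live libraries are below the dotted line, outside the best 25627.

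Counted over the window, regions that ranked ahead in both high libraries outnumbered those ahead in both low libraries. Of the 54 regions, 15 (27.8%) ranked better in both high than in both low libraries, against 14.1% of regions genome-wide, and 4 (7.41%) ranked better in both low libraries, against 16.3%. The 15 lay on both sides of MYC, from 556.6 kb upstream to 922.1 kb downstream, and the 4 lay at -1.3, 154.7, 348.2 and 368.3 kb. Gene ends and distant regions differed genome-wide in this respect. Protein-coding genes ranked better in both low libraries in 37.6% of cases and in both high libraries in 10.8%, whereas regions over 50 kb from a protein-coding gene end did so in 7.77% and 17.3%. Of the 50 window regions at that distance, 15 (30%) were ahead in high and 3 (6%) in low libraries. Without H3K27ac high replicate 1 the high count was 28 (53.8%, against 32% genome-wide). The low count was 10, 9 and 8 without high replicate 2, low replicate 1 and low replicate 2 (19.6%, 16.7% and 15.7%, against 27.3%, 29.2% and 29.3%). Neighbouring regions are not independent, and no test over regions was made. For a single region the exact permutation test cannot go below p = 0.333 in this comparison.

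Between sorted and live cells, regions ahead in all sorted libraries also had a higher share in the window than genome-wide. Those ahead in both live libraries had a lower one. Of the 54 regions, 7 (13%) ranked better in all sorted than in both live libraries, against 8.24% genome-wide, and 5 (9.26%) ranked better in both live libraries, against 11.7%. At over 50 kb from a protein-coding gene end they were 7 (14%, against 5.97%) and 4 (8%, against 8.44%). The 7 were those at 556.6, 555.2, 524.7, 434.5 and 185.0 kb upstream and 60.4 and 578.5 kb downstream. The 5 were the MYC promoter and the regions at 872.6 and 427.6 kb upstream and 154.7 and 587.4 kb downstream. Without H3K27ac high replicate 1 the first count was 11 (21.2%, against 13.5% genome-wide). Without live replicate 1 or 2 the second was 13 (25.5%, against 23.5%) or 9 (17%, against 23.8%).

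**Figure D5:**
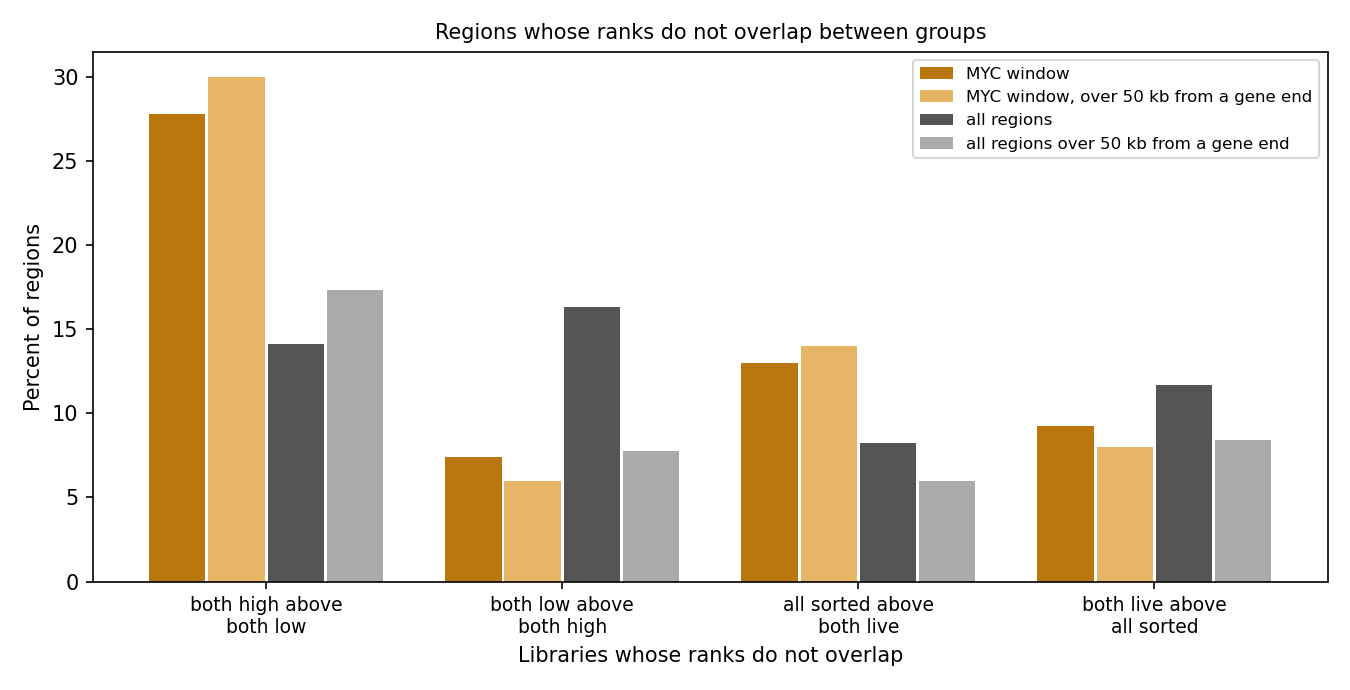
Percent of regions (bars from 0) whose ranks do not overlap between groups, for the 54 regions of the MYC window, its 50 regions over 50 kb from a protein-coding gene end, all 41407 regions and the 11271 of these over 50 kb from a gene end. In the window 27.8% of regions have both high libraries ahead of both low ones, against 14.1% of all regions.

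Regions among the best of 1 group and not of another were few. A single region, 922.1 kb downstream, was high-only, that is, among the best of both high libraries (ranks 22631 and 22638) and of neither low library (1.85% of the 54, against 2.37% genome-wide). It was listed at 30063 in low replicate 1. A single region, 368.3 kb downstream, was low-only (ranks 19232 and 19569, 1.85% against 3.29%), and it was listed in neither high library. The regions at 185.0 kb upstream and 60.4 kb downstream were sorted-only (3.7% against 1.42%). Live-only regions lay 872.6 kb upstream and 587.4 kb downstream (3.7% against 2.18%), with live ranks of 23729 and 18830 and of 18741 and 24044. The first was also listed at 28955 in low replicate 2, and the second at 43921 in high replicate 2 and 50901 in low replicate 2. All 6 lay over 50 kb from a protein-coding gene end, where the genome-wide shares were 3.13% high-only, 2.86% low-only, 1.37% sorted-only and 2.01% live-only. These counts rest on single libraries. High-only regions numbered 5, 4, 3 and 3 without high replicate 1, high replicate 2, low replicate 1 and low replicate 2, and low-only regions 6, 5 and 3 without the last 3 of these. Sorted-only regions numbered 4 without high replicate 1 or low replicate 2, and live-only regions 5 without live replicate 2.

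Replicates shared more regions here than genome-wide in the high group and fewer in the live group. Of the window's regions among the best of either replicate, 27 of 41 (65.9%) were in both high libraries, 28 of 40 (70%) in both low libraries and 21 of 37 (56.8%) in both live libraries. Genome-wide the shares were 59.5%, 70.7% and 70.9%. In the stretch 400 to 550 kb upstream they were 9 of 11, 6 of 11 and 6 of 6.

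The genes whose ranks were most like those of MYC over the 6 libraries were EDC4, PLPP5, HIGD2B, BBS4 and PPP1R3B, out of 8021 others open in all libraries. Likeness was the largest difference in rank in any library, which was 2404 for EDC4, a scaffold protein of mRNA decapping, and 2783 for PPP1R3B, a regulatory subunit of protein phosphatase 1. HIGD2B and BBS4 share 1 open region and count as a single case. EDC4 ranked 19278 and 12554 in the high, 12751 and 15809 in the low and 9619 and 9525 in the live libraries. Like MYC, it thus stood ahead in both live libraries, an order that the choice by likeness favours.

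Among the 13 genes of the MYC network, 6 were open in all libraries, against 40.2% of all 19970 protein-coding genes. These were MYC, its obligate partner MAX, the antagonists MXD1, MXD3 and MXD4, which compete with MYC for MAX, and MLXIP, a partner of the related protein MLX. MXD1 ranked 1213 and 51 in the high, 92 and 201 in the low and 192 and 146 in the live libraries, among the strongest gene ends of every list. MAX ranked 4435 and 4386 in the high, 1427 and 1080 in the low and 3468 and 3727 in the live libraries, so low was ahead of high. MYCN, MGA and MLXIPL were open in none, counting a region within 1 kb of either annotated end. MAX, MNT, MLX, MLXIP and MYCL, 5 of the 10 open in at least 1 library, ranked better in both low than in both high libraries, against 37.6% of open genes, and MXD4 alone ranked better in both high libraries (153 and 191, against 352 and 270 in the low libraries), where the share of open genes was 10.8%. MNT was ahead in all sorted libraries, against 16.3% of open genes, and MYC in both live ones.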

How the data were processed

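Accessibility was measured in 6 GM12878 libraries, 2 per group, grouped by sample title. Per the submitters' processing notes, bcl2fastq, FastQC, Bowtie2, Picard and MACS2 were used, without versions, with the builds hg38 and hg19. The sources used here do not give settings, the Tn5 shift or duplicate removal. The authors deposited 1 list of single-base summits per library, with a score taken to be a −log10 p-value or q-value. The lowest score was 2.02. The score grows with depth, which is unknown, so it served only to rank regions within a library. Positions are 1-based on hg38.

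With Python 3.11.15, numpy 2.4.6 and pandas 2.3.3, summits on chromosomes 1 to 22 and X closer than 250 bp were chained into regions, and the best 25627 per library were kept, ties being broken by a seeded draw. A rank beyond that counted as last in comparisons between groups. Genes came from a RefSeq table for GRCh38.p14, which gives no strand. A gene was open if a best region's summit lay within 1 kb of either end of its span. Regions farther inside the span were not counted, so a promoter there would be missed and a gene not open is not shown to be closed. Exact two-sided permutation tests compared means over libraries. The ranking was tested on simulated lists.

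Regions named were those at MYC, those 400 to 550 kb upstream among the best of any library, the 12 others with the best median rank, and those present in 1 group alone. The members and gene lists were chosen with earlier results of these data known. Alternatives covered list length, a score of at least 5, joining distance, leaving out each library in turn and a block for the replicate number. Lists lengthened without H3K27ac high replicate 1 and the alternatives for regions ranked ahead were added after seeing the data. No sequence of chromosome 8 is shown, and the result for a marker gene is not reported here.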

Additional observations from a re-analysis of the deposited data

Results flagged for a closer look

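Summits on the EBV genome, a contig that the comparisons above do not use, numbered 11 and 10 in the H3K27ac-high libraries, 15 and 18 in the H3K27ac-low libraries and 16 and 17 in the live control. H3K27ac low replicate 2, with 18, was above both live libraries. The full lists differ in length, and GM12878 carries the virus in every group. The live control is therefore no virus-free background.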

How the results depend on the processing

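Joining summits under 100 or 1000 bp kept every direction of the 4 differences and left the counts of regions in 1 group alone within 1.5 times. List length decided more. With full lists the window differed by -16.5 regions between high and low and by -35.25 between sorted and live cells, and the upstream stretch by -1 and -3. High-only, sorted-only and live-only regions then numbered 0, 0 and 7. With a score of at least 5 these values were -12, -34.5, -1 and -1.5 regions, and 0, 0 and 9. With the best 12813 regions, high minus low was 4.5 in the window and 0 in the stretch, sorted minus live in the stretch 2, and low-only, sorted-only and live-only regions numbered 0, 1 and 0. Without H3K27ac high replicate 1 and with lists of 41828 regions, high minus low was 1.5 and 0, sorted minus live -0.5 in the window and 1.5 in the stretch, and high-only, low-only and live-only regions 5, 2 and 4. With 1 library left out at the main length, high minus low in the window ran from -4 to 4, sorted minus live from 3 to 7, and in the stretch from 1 to 2 and from 3 to 3.667. High-only regions ran from 1 to 5, low-only from 1 to 6, sorted-only from 2 to 4 and live-only from 2 to 5. Leaving out a library also loosens these definitions. The share of window regions ahead in both high libraries exceeded the genome-wide share in all 12 alternatives (12.7% to 53.8%, against 6.68% to 36.5%). The share ahead in both low libraries did so in 0 of 12. The share ahead in all sorted libraries likewise exceeded it in all 12, and the share ahead in both live libraries in 1 of 12. Regions ahead in both live libraries numbered 14 with full lists, 15 with a score of at least 5 and 3 with the best 12813, where 3 were ahead in all sorted and 1 in both low libraries. With the lengthened lists 38 were ahead in high, 7 in low, 18 in all sorted and 10 in both live libraries. The cause of these changes was not tested. With the replicate number as a block, high minus low stayed at 0 and 1.5 regions (exact sign-flip test, p = 1 and 0.5, where 0.5 is the smallest that 2 pairs allow). The numbers alone do not pair the libraries, since differences between replicates 1 and 2 correlated at 0.065 between the high and low groups over 41407 regions. Depth is unknown, which limits every statement on absence.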

Other observations

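Genes of factors known to occupy EBV super-enhancers were mostly open at a gene end. Of 15, 9 were open in all 6 libraries, against 40.2% of protein-coding genes. They were EBF1, RELA, RELB, REL, NFKB1, NFKB2, IRF4, RUNX3 and MED1. RUNX3, a lymphoid transcription factor, ranked 4496 and 7342 in the high, 2900 and 3695 in the low and 8012 and 5620 in the live libraries. IRF4, a regulator of B cell activation, ranked 16888 and 22037 in the high, 8271 and 14636 in the low and 7586 and 10889 in the live libraries. For 8 of the 13 open in at least 1 library both low libraries were ahead of both high ones and for 0 the reverse, against 37.6% and 10.8% of open genes. RBPJ and ETS1 had no best region within 1 kb of either annotated end in any library. Regions farther inside these genes were not counted, so this does not show that they were closed. The list was chosen with earlier results of these data known.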
